A study of Homo sapiens with 51 samples.

Results

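PANC1, a human cell line derived from a pancreatic ductal adenocarcinoma (PDA), was compared at rest with KP4 and PK45H, the other PDA lines of the study in which OVOL2 was low. The comparison took all 3 untreated PANC1 libraries against the mean of the 3 untreated KP4 and the 3 untreated PK45H libraries, chosen by their titles. These 9 libraries were part of 51 from 5 lines. These 9 are labelled untreated, and the labels say no more of their handling. Like every other group they were cultured for 6 days, and 100 ng of total RNA went into PLATE-seq, a pooled 3′-end RNA-seq method with well barcodes. The same line contrast was also read in 9 libraries that the untreated comparison does not use. In these the 3 lines carried a lentiviral mCherry open reading frame, the study's negative control, at a multiplicity of infection of 2 with 8 µg/ml polybrene, followed by 2.5 µg/ml puromycin and 0.6 µg/ml doxycycline. A further 9 libraries of these lines, called mCherry + M2rtTA, had the same treatment with a second virus for M2rtTA, a transactivator of doxycycline-inducible promoters. They are used for some gene lists only. Each line is a single established culture, and the labels do not say that its 3 libraries came from separate cultures, so p-values measure the spread between these libraries, which may be technical. With 1 line on 1 side of the contrast and 2 lines on the other, PANC1 is a single example and not a sample of a class of tumours.

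PDA cells fall along an axis from epithelial, gland-forming states to mesenchymal, dedifferentiated ones. OVOL2 is a zinc-finger repressor that holds epithelial cells in their state by silencing ZEB1, and ZEB1 in turn represses CDH1, the adhesion receptor E-cadherin, through E-box letters in promoters. Lines that have lost this brake can still differ widely in keratins, homeobox genes, secreted ligands and metabolism, and in the copy number of chromosome arms. Tumour lines of 1 diagnosis keep such differences over many passages.

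The 9 libraries held 3367089 to 7146812 counts and a count for 16796 to 18430 genes. Depth did not overlap between the lines: PANC1 libraries held 3367089 to 4431189 counts, KP4 4771717 to 6096545 and PK45H 6100596 to 7146812. Mitochondrial messages took 23.66% to 27.31% of the counts. Over tested genes, the lowest correlation of a library with a mate of its own line was 0.9417 and the highest with a library of another line was 0.8984. Acinar, leukocyte and endothelial genes were low: the summed level of 7 acinar enzymes and factors was at most 1.36 CPM (read counts scaled to library size) in PANC1, 1.5 in KP4 and 1.18 in PK45H. The sum of 6 leukocyte genes was at most 7.76 CPM, and that of 5 endothelial genes at most 10.2 CPM, in any of the 9 libraries. The 9 islet endocrine genes summed to 130.6 to 155.2 CPM in PANC1, 119.1 to 190.1 in KP4 and 117.7 to 128.7 in PK45H. Most of this was NEUROD1, a neuronal and islet factor (125 to 149, 99.8 to 173 and 73.6 to 102 CPM, adjusted p = 0.234), while the hormones INS, GCG and PPY had 0 counts in all 9. The 7 fibroblast genes summed to 32.3 to 33.4 CPM in PANC1, 25.8 to 26.2 in KP4 and 14.1 to 19.4 in PK45H, of which COL1A1 is described with the matrix genes. Library sizes were adjusted with TMM factors, and values are given per library or as mean ± SD (n = 3).

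OVOL2 stood near the limit of detection in all 3 lines. The PANC1 libraries held 2.96, 2.26 and 0.575 CPM, KP4 0.715, 0.333 and 0.836, and PK45H 0.976, 1.18 and 0.428. Of the 9 libraries, 2 of PANC1 were the highest, while its other value lay among those of the other lines. On log2(CPM + 1) PANC1 was higher by 0.67, with a two-sided exact permutation p of 0.0714 over 84 assignments, of which the smallest possible p was 0.0119. A higher level in PANC1 was therefore not shown, and the gene was too low for the test across all genes. ZEB1, the OVOL2 target, ranged from 13.2 to 20.1 CPM in PANC1, 12.9 to 25.5 in KP4 and 17.4 to 31.5 in PK45H, with a log2 fold change of -0.30 ± 0.26 (SE, adjusted p = 0.432). CDH1 held 6.33 to 8.43, 3.76 to 6.83 and 4.07 to 8.28 CPM in the same order, a log2 fold change of 0.47 ± 0.30 (adjusted p = 0.291). EPCAM, an epithelial surface glycoprotein, was at 35.2 ± 6.28 CPM in PANC1, 28.1 ± 6.85 in KP4 and 43.8 ± 4.77 in PK45H, and its log2 fold change was 0.01 ± 0.18 (adjusted p = 0.985). The groups overlapped in ZEB1, CDH1 and EPCAM. VIM, the intermediate filament vimentin, did separate the lines: PANC1 held 2803 to 3282 CPM, KP4 1767 to 1884 and PK45H 172 to 270. The 6-letter E-box CAGGTG, read on both strands (CACCTG) in the 250 bases before the RefSeq start, lay in 252 of 1044 genes with PANC1 above both lines (24.1%), 153 of 884 with PANC1 below both (17.3%) and 20.6% of tested genes with a window. Over all RefSeq symbols with a window the share was also 20.6%. Counted by window, of which a gene can have several, it was 17.5%.

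PANC1 nevertheless differed from the other lines in a large part of its transcriptome. Of 13523 genes tested, 3705 differed from the mean of KP4 and PK45H at an adjusted p under 0.05 (27.4%), 1970 higher (14.6%) and 1735 lower (12.8%) in PANC1. Since KP4 and PK45H are themselves unlike, a stricter call was used for the genes described below: past the threshold, and all 3 PANC1 libraries outside the range of all 6 others. It held for 2455 genes (18.2%), of which 1334 had PANC1 above both lines (9.86%) and 1121 had it below both (8.29%). Of the other 1250 called genes, 227 had a PANC1 mean between the means of KP4 and PK45H. A fold change of at least 2 against each line was reached by 559 of the genes above and 389 of those below. Against KP4 alone 3470 genes passed (25.7%), 1801 higher and 1669 lower, and against PK45H alone 3901 (28.8%), 1928 higher and 1973 lower. These last comparisons share the PANC1 libraries, so their values are shown side by side and not as independent evidence. In bulk libraries, fewer cells of a type and less RNA per cell cannot be told apart. The gene list counts below are to be read beside the shares over all genes tested. These were 14.6% higher, 12.8% lower, 9.86% above both lines and 8.29% below both.

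**Figure D1:**
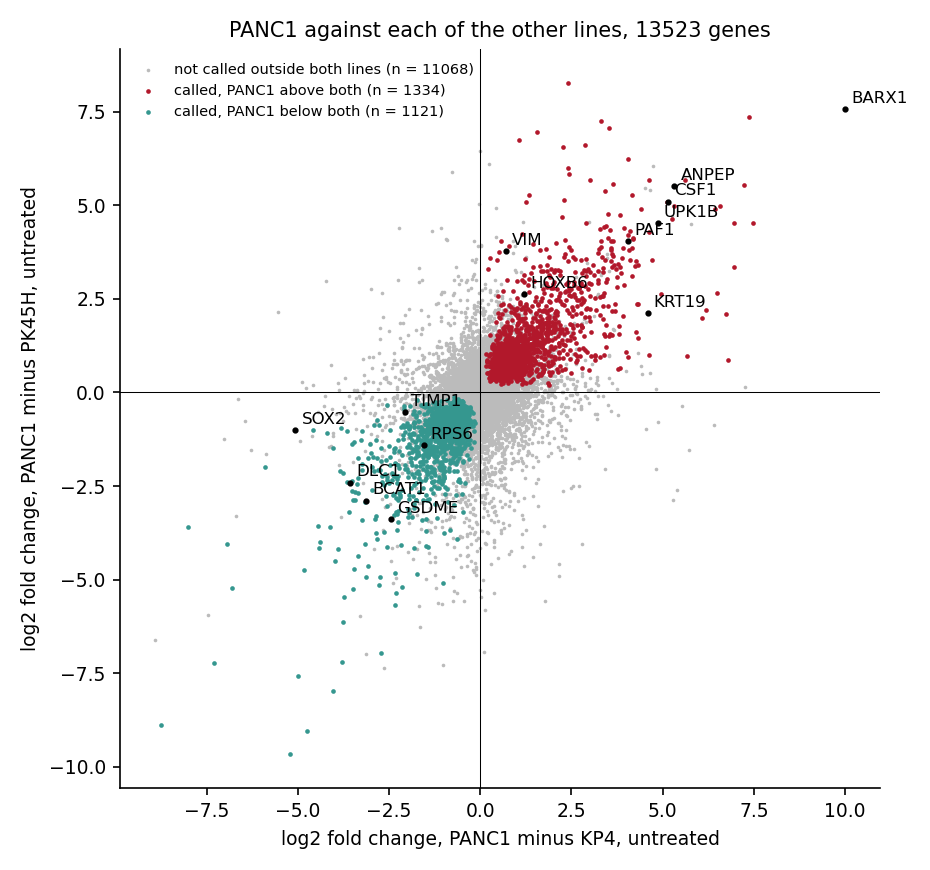
Each point is 1 of the 13523 genes tested, with its log2 fold change of PANC1 against KP4 on the horizontal and against PK45H on the vertical axis, in untreated libraries. Coloured points are the 1334 genes above and the 1121 below both lines, which lie in the upper right and lower left, and VIM is far higher than in PK45H but close to KP4.

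In the 9 mCherry libraries the same contrast was measured again, and 3527 of 12935 genes passed (27.3%), 1736 higher and 1791 lower. Of the 2455 genes outside both lines at rest, 2377 were tested there. Their direction was the same in 2317 (97.5%), 1679 (70.6%) passed the threshold in the same direction, and 0 passed it in the opposite one. The difference itself was tested over 18 libraries, and 25 of 13853 genes changed their PANC1 difference (0.18%). Those are described with lipid synthesis, to which many belong.

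The 12 genes farthest above both lines were ranked by fold change, with a floor of 10 CPM in PANC1 alone. That rule favours genes close to silent in KP4 and PK45H, so their low levels there are no separate result. BARX1, a homeobox factor of stomach mesenchyme development, held 31.2, 17.6 and 23.6 CPM in PANC1, 0 counts in all 3 KP4 libraries and at most 0.285 CPM in PK45H. It was at least 132-fold higher than in KP4, taking 3 counts over the KP4 libraries as the floor. CSF1, the growth factor of macrophages, held 85.9, 67.6 and 77.1 CPM in PANC1, 1.33 to 2.68 in KP4 and 1.71 to 3.03 in PK45H. Its log2 fold change was 5.12 ± 0.21 (adjusted p = 3.41e-07) at rest and 4.94 in the mCherry libraries. ANPEP, the surface aminopeptidase CD13, held 40.6, 27.8 and 28.8 CPM against at most 1.33 in any library of the other lines. GATA5, a zinc-finger factor of foregut and heart endoderm, held 97.1, 79.6 and 76.2 CPM against at most 3.25. In these 4 genes all PANC1 libraries lay above all others, as the choice of genes requires.

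The remaining 8 of the 12 highest genes showed the same gap, with log2 fold changes of 5.64 ± 0.26 for the matrix-remodelling-associated receptor MXRA8 and 5.15 ± 0.25 for the germ-cell RNA-binding protein YBX2. DLL3, a Notch ligand that acts inside the cell, held 40.6, 31.0 and 44.3 CPM against 0.179 to 2.19, and the calcium channel subunit CACNG4 31.2 to 47.2 against at most 1.67. UPK1B, a membrane protein of the urothelial plaque, held 8.82 to 14.9 CPM against at most 0.894, and CCM2L, a partner of the MEKK3 kinase in vessels, 10.2 to 12.7 against at most 0.715. HOXC13 and the carbonic anhydrase-related gene CA8 complete the group, with log2 fold changes of 4.72 ± 0.33 and 4.15 ± 0.19. All 12 also passed in the mCherry libraries, with adjusted p-values up to 0.00622 (CCM2L).

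Among the 12 lowest genes, the tumour suppressor DLC1, which switches off the GTPase RhoA, held 13, 17.6 and 12.9 CPM in PANC1, 159 to 181 in KP4 and 69.5 to 83.4 in PK45H. Its log2 fold change was -2.98 ± 0.16 (adjusted p = 1.29e-06), and -3.05 in the mCherry libraries. BCAT1, the cytosolic enzyme that starts branched-chain amino acid breakdown, held 2.73, 3.62 and 2.88 CPM against 21.1 to 32.0 in KP4 and 21.7 to 25.0 in PK45H. GSDME, which forms membrane pores after caspase cleavage, held 0.456, 1.36 and 4.03 CPM against 8.66 to 20 in the other lines. MACROH2A2, a histone variant of silent chromatin, held 1.82 to 2.59 CPM against 10.3 to 32.1. TMEM158, a membrane protein induced by RAS, fell by 3.31 ± 0.20 on the log2 scale, and PLEK2, a membrane-binding regulator of actin, by 2.68 ± 0.20. The monocarboxylate carrier SLC16A9 had 0 counts in 2 PANC1 libraries and 1.13 CPM in the other one, against 6.83 to 16.1 elsewhere.

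The other members were SFTA1P, CAMK2N2, ABRACL, F8A3 and ZSWIM4. The pseudogene transcript SFTA1P held 11.6 to 18.7 CPM in PANC1 and 89.6 to 137 in the other lines. CAMK2N2, an inhibitor of the kinase CaMKII, fell by 2.79 ± 0.22 and ABRACL by 2.46 ± 0.26 on the log2 scale. F8A3 has near-identical copies, so how its reads were divided among them is uncertain. ZSWIM4 had 0 counts in all 3 untreated PANC1 libraries, so that KP4 was at least 42-fold and PK45H at least 45.8-fold higher, but it did not pass in the mCherry libraries (log2 fold change -1.15, adjusted p = 0.14). The other 11 passed there, in the same direction.

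**Figure D2:**
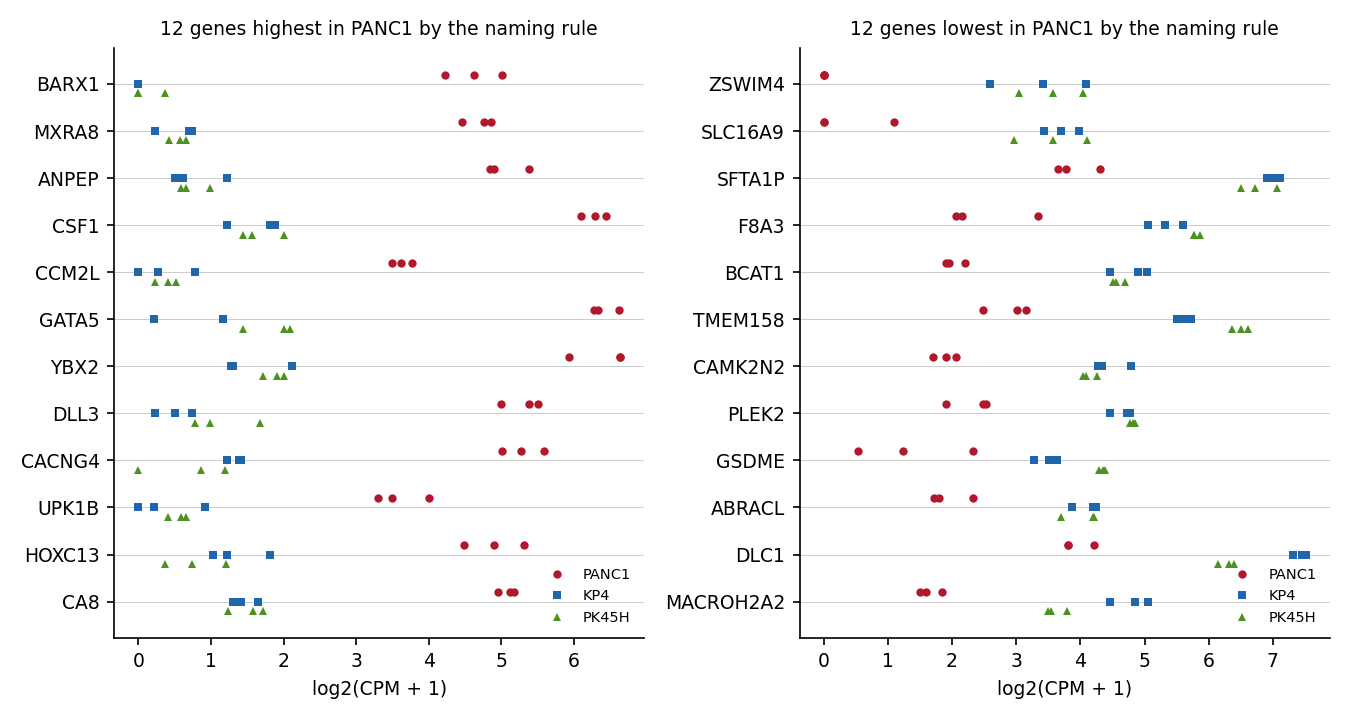
Each symbol is 1 untreated library of PANC1 (circles), KP4 (squares) or PK45H (triangles), on log2(CPM + 1), for the 12 genes with PANC1 farthest above (left) and the 12 farthest below (right) both lines. In every row the PANC1 circles stand apart from all 6 other symbols, as the choice of genes requires.

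Gene order along the chromosomes showed a second feature, noticed in these data and defined from them: a run of neighbouring genes on the long arm of chromosome 19 was raised as a group in PANC1. Over 12482 windows of 41 neighbouring tested genes, the 5th and 95th percentiles of the median log2 fold change were -0.536 and 0.475, and the highest was 2.47. That window ran from RASGRP4 to AKT2 (chr19:38409058-40285345, RefSeq GRCh38.p14). Of its 41 genes, 35 were higher in PANC1, 0 were lower, and 33 had PANC1 above both lines. Its median was 2.44 against KP4, 2.70 against PK45H and 2.53 in the mCherry libraries. Together these 41 genes took 2.51% to 3.03% of the counts of the PANC1 libraries, 0.378% to 0.405% in KP4 and 0.373% to 0.407% in PK45H.

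The run held genes of unrelated function. Several of the most raised are active in most cells, while others were close to silent in the other lines. RYR1, for example, averaged 12.2 CPM in PANC1, 0.66 in KP4 and 1.14 in PK45H. PAF1, a subunit of the transcription elongation complex of the same name, held 655, 605 and 572 CPM in PANC1, 34.0 to 39.5 in KP4 and 32.0 to 42.8 in PK45H, a log2 fold change of 4.05 ± 0.12 (adjusted p = 1.18e-07). Its divergent neighbour MED29, a Mediator subunit, held 363, 297 and 331 CPM in PANC1 against 23.9 to 48.5 in the other lines. The proteasome ATPase PSMC4 held 3352 to 4061 CPM against 363 to 421, and the nucleolar methyltransferase FBL 3504 to 4456 against 338 to 510. RPS16, a protein of the small ribosomal subunit, held 5498 to 9508 CPM against 745.5 to 1002, with closely related copies elsewhere in the genome. AKT2, a kinase of insulin and survival signalling, held 609, 744 and 568 CPM against 65.8 to 98.8. In all of these PANC1 did not overlap the other lines, and those 2 lay close together.

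The elongation factor SUPT5H, the mitochondrial import subunit TIMM50, the translation factor EIF3K and the mRNA-decay protein ZFP36 rose by 2.73, 2.53, 2.57 and 3.84 on the log2 scale. DLL3, named above among the highest genes, and the kinase DYRK1B (3.58 ± 0.20) lie within the same run. ZNF546 did not pass (1.23, adjusted p = 0.322). A single KP4 library held 231.5 CPM of it against 6.33 and 10.9 in its mates, and without that library its log2 fold change was 2.86 (adjusted p = 3.9e-05).

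The raised genes ended sharply at AKT2. Of the 41 tested genes after it, 0 were higher in PANC1 and 10 were lower, with a median of -0.306. C19orf47, the next tested gene, had a log2 fold change of -0.06 (adjusted p = 0.817), and PLD3, the one after it, -0.52 (adjusted p = 0.0255). The log2 fold change of PLD3 did not pass without any 1 of the PANC1 libraries or PK45H replicate 3 (adjusted p = 0.0513 to 0.0787). Before RASGRP4, 10 of 41 were higher and 0 lower, with a median of 0.451. Among those 10 were PPP1R14A, an inhibitor of myosin phosphatase (5.15 ± 0.27), SPINT2, a protease inhibitor of epithelia (1.98 ± 0.25), and YIF1B (1.26 ± 0.18), so that raised genes began outside the window, whose first gene is set by the fixed number of 41. Amplification of this band with AKT2 and PAF1 is known from pancreatic cancers, PANC1 among them, but the files hold RNA only, and the part of DNA copy number in these values was not tested.

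PAF1 and MED29 begin on opposite strands and share the stretch between their starts. It is shown because it lies before 2 of the most raised neighbours, and its use as a promoter was not tested. The RefSeq sequence (GRCh38.p14) is the 250 bases before the MED29 start, chr19:39391128-39391377 on the plus strand, and the PAF1 start lies at 39391106. Capitals mark the letters CCAAT or its reverse complement ATTGG, the box bound by the factor NF-Y.
PAF1 and MED29: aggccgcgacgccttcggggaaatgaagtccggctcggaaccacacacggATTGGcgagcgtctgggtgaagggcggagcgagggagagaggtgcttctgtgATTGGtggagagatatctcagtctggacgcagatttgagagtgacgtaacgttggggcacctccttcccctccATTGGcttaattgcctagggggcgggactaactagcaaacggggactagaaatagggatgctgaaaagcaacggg
The box occurred 3 times, at 200, 148 and 75 bases before the MED29 start (first base). Of all RefSeq windows of this length, 32.0% held at least 1 copy. Counted by gene, which can have several windows, 37.0% of all symbols and 41.9% of tested genes with a window did.

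**Figure D3:**
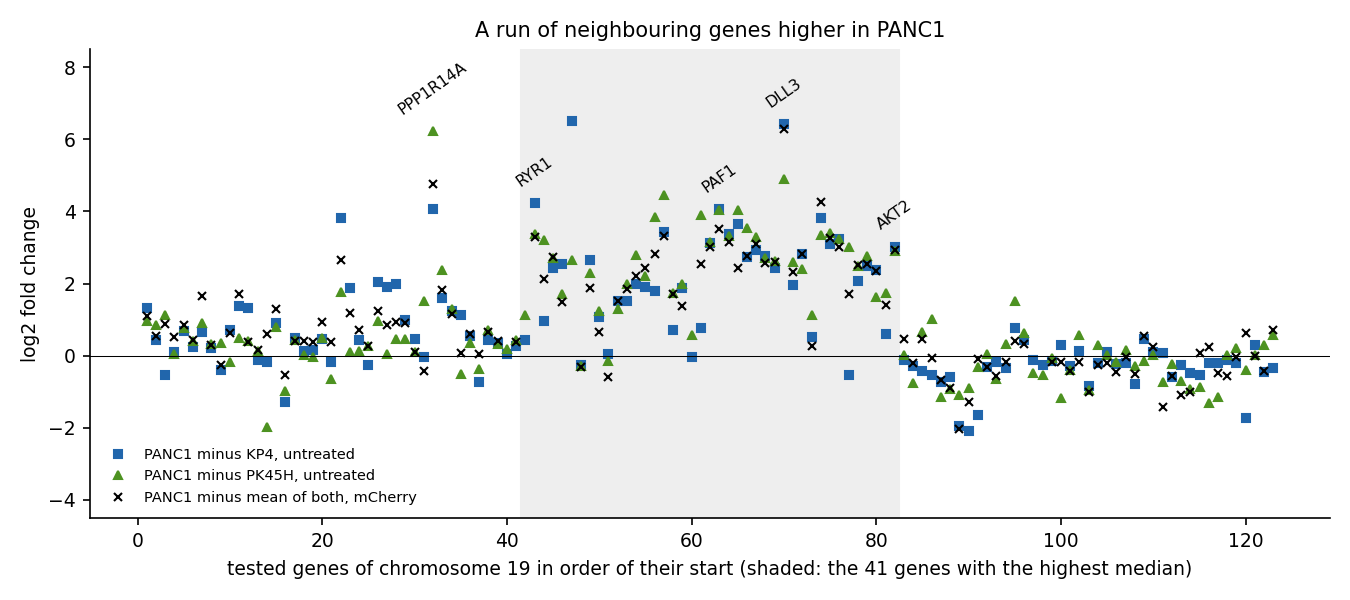
Tested genes of chromosome 19 are placed in the order of their starts, with the 41-gene window shaded and 41 genes on each side. Points give the log2 fold change of PANC1 against KP4 (squares) and PK45H (triangles) at rest and against the mean of both in mCherry libraries (crosses), and the drop after AKT2 is seen in all 3.

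Other stretches moved less. The next highest windows that did not overlap it had medians of 1.16 (SIRT3 to CTSD, chromosome 11), 0.914 (LENG8 to ZNF583, chromosome 19), 0.891 (RGS11 to NME3, chromosome 16) and 0.794 (NDUFB10 to THOC6, chromosome 16). The 3 lowest lay on chromosomes 12 and 8, with medians of -0.933 (GABARAPL1 to DERA), -0.886 (LTBR to NECAP1) and -0.845 (CTSB to ENTPD4). Each kept its sign in the mCherry libraries, at 0.73, 0.824, 0.763, 0.486, -0.912, -0.969 and -0.766. Over whole chromosomes the median ran from -0.383 on chromosome 14 to 0.318 on chromosome 15. The gene lists below were not separated by position, so their members can lie within such stretches.

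Keratins of simple epithelium were higher in PANC1 although CDH1 and EPCAM were not shown to differ. KRT19, a keratin of pancreatic ducts, held 511, 425 and 478 CPM in PANC1, 18.8 to 20.7 in KP4 and 95.6 to 122 in PK45H, and its log2 fold change was 3.35 ± 0.12 (adjusted p = 2.69e-07). The keratins KRT8 and KRT18 were higher by 2.28 ± 0.14 and 1.58 ± 0.11. In each of the 3 keratins all PANC1 libraries lay above all others, and PK45H lay above KP4. KRT7 went another way, at 155 to 203 CPM in PANC1, 123 to 186 in KP4 and 1440 to 1506 in PK45H. Of 6 duct genes tested, 4 were higher and 1 was lower, with SOX9, a duct and progenitor factor, level with PK45H (75.7 to 94.3 against 79.2 to 91.2 CPM). Of 37 epithelial genes tested, 14 were higher and 5 lower, with 10 above both lines against 1 below, CLDN1, a tight junction protein (-1.70 ± 0.19). The median over the list was 0.147, beside -0.0149 over all genes tested. It was 0.502 against KP4 and 0.0417 against PK45H.

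Mesenchymal genes split. Of 39 tested, 13 were higher and 11 lower, 8 above and 5 below both lines, and the median was -0.183. That median was 0.134 against KP4 and -0.456 against PK45H. VIM (2.24 ± 0.13), the contractile light chain MYL9 (2.58 ± 0.14) and the tropomyosin TPM2 (1.94 ± 0.12) were above both lines. TPM2 sat close to KP4, at 755 to 890 CPM against 654 to 692, while PK45H held 55.5 to 76.9. GLIPR1, FSTL1, a secreted glycoprotein, and PDGFC, a growth factor for fibroblasts, were below both, by 2.56, 3.29 and 1.82 on the log2 scale. N-cadherin (CDH2), the usual counterpart of CDH1, held 8.20 to 12.9 CPM in PANC1, 2.30 to 5.01 in KP4 and 0.714 to 1.51 in PK45H. PANC1 thus had more KRT19 and more VIM message than either line.

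HOX genes leaned higher in PANC1, whereas foregut factors split. Of 24 HOX genes tested, which set position along the body axis, 14 were higher and 2 lower. Of them 8 were above and 2 below both lines. The median was 0.979, with unequal parts: 0.333 against KP4 and 1.54 against PK45H. HOXC13 held 28.7, 21.5 and 38.8 CPM in PANC1 against 0.285 to 2.50 in the other lines, and its cluster neighbours HOXC9, HOXC10 and HOXC11 were also above both, by 0.99, 1.55 and 2.47. HOXC12 held 3.42 to 4.60 CPM in PANC1 and 0 counts in all 6 other libraries. HOXC6 and HOXC8, at the other end of the cluster, passed against the mean but overlapped KP4. HOXB5 (2.08 ± 0.19) and HOXB6 (1.91 ± 0.17) were above both lines, whereas HOXA10 (-1.80 ± 0.38) and HOXA11 (-1.48 ± 0.37) were below. HOXA11 was low in all lines and missed the threshold in the mCherry libraries (adjusted p = 0.0583). The log2 fold change of HOXA11 at rest did not pass without PANC1 replicate 1 (adjusted p = 0.0557).

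Of 22 pancreatic and foregut transcription factors tested, 5 were higher and 5 lower, with 4 above and 3 below both lines and a median of -0.285. Over all genes tested, 14.6% were higher and 12.8% lower. ONECUT3, of the family that specifies pancreatic progenitors, held 79.9 to 84.8 CPM in PANC1 against 3.85 to 11.8 in the other lines, and the foregut pioneer factor FOXA2 64.9 to 106 against 10.9 to 17.2. PDX1, the master factor of the pancreas, was low but above both lines, at 3.84 to 5.70 against 0.325 to 2.17 CPM. SOX2 was below both lines, and here KP4 stood apart: 59.7 to 68.3 CPM against 1.59 to 2.30 in PANC1 and 3.20 to 4.42 in PK45H. GATA6, a factor of the classical PDA type, held 0.911 to 1.73 CPM in PANC1, 2.33 to 3.40 in KP4 and 6.14 to 8.58 in PK45H. PAX6, an eye and islet factor, fell by 2.44 ± 0.49 on the log2 scale. Of 18 classical gastrointestinal genes, 2 were higher and both lay above the other lines, AGR2, a disulphide isomerase of mucous cells (47.2 to 50.4 against 2.72 to 5 CPM), and MUC1 (6.61 to 8.14 against 1.61 to 2.71), and 1 was lower. Of 10 basal-like genes, 1 was higher, ITGA3, and 5 were lower, with medians of -0.163 against KP4 and -1.11 against PK45H. The lower ones included the calcium-binding S100A2 (-1.41 ± 0.19) and the EGFR ligand AREG (-1.36 ± 0.21). In the mCherry libraries AREG had a log2 fold change of -0.17 (adjusted p = 0.613).

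Of 21 neuroendocrine and neuronal genes, 2 were higher and 6 lower, a median of -0.827. The median was -0.961 against KP4 but -0.0951 against PK45H, with 1 gene above and 2 below both lines. NES, the progenitor intermediate filament nestin, held 58.1, 73.5 and 94.0 CPM in PANC1, 4.39 to 5.90 in KP4 and 14.1 to 20.7 in PK45H, while the granule protein SCG2 fell by 2.95 ± 0.34 on the log2 scale. Of 35 genes of axon guidance and neural adhesion, 7 were higher and 7 lower, beside 14.6% and 12.8% of all genes tested. The guidance cue SEMA3A held 9.57 to 12.2 CPM in PANC1 against 39.4 to 57.6 in the others, and PLXND1, a receptor of the semaphorin family, was higher by 2.43 ± 0.21. The paralogous cues SLIT3 and SLIT2 moved oppositely, by 2.13 ± 0.23 and -4.09 ± 0.56, the second from 2.30 to 7.99 CPM in the other lines to at most 0.456 in PANC1. Of 15 oncofetal and RNA-binding genes, 2 were higher, MEG3, an imprinted long RNA (46.5 to 79.3 against 7.5 to 11.3 CPM), being above both lines, and 2 were lower, HMGA1, a chromatin architectural protein, being below both (-1.23 ± 0.12). Of 9 cancer-testis antigens, 3 were higher, led by the helicase DDX43 (3.89 ± 0.31), and 1 was lower.

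Signalling ligands and their readouts were unequal. Of 40 genes of TGF-beta and BMP signalling, 10 were higher and 7 lower, beside 14.6% and 12.8% of all genes tested. Of them 8 were above and 5 below both lines, beside 9.86% and 8.29%. ID1, an inhibitor of basic helix-loop-helix factors and a direct BMP target, held 219, 256 and 268 CPM in PANC1, 14.1 to 20.8 in KP4 and 16.5 to 28.1 in PK45H, a log2 fold change of 3.74 ± 0.20 (adjusted p = 9.78e-07) and 4.49 in the mCherry libraries. ID3 held 21.5 to 22.3 CPM, just above KP4 (16.1 to 20.7) and well above PK45H (1.85 to 2.93). The ligands went the other way: TGFB1 fell by 0.89 ± 0.14 and BMP4 by 1.84 ± 0.34 on the log2 scale, and the receptor TGFBR2 by 1.47 ± 0.27. Latent TGF-beta binding proteins split, LTBP2 being higher by 2.36 ± 0.14 and LTBP4 lower (-1.53 ± 0.18). TGFB1 and LTBP4 lie among the 41 tested genes after AKT2, of which 10 were lower. The activin antagonist FSTL3 was below both lines (-0.95 ± 0.15). SMAD4, the shared mediator that is often lost in PDA, held 4.03 to 10.5 CPM in PANC1 against 2.00 to 3.55 in the other lines.

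Of 32 WNT genes tested, 12 were higher and 3 lower, with 10 above both lines and a median of 0.395. The ligand WNT7B held 80.2 to 86.8 CPM in PANC1, 12.1 to 15 in KP4 and 42.1 to 52.8 in PK45H (1.71 ± 0.12). The co-receptor LRP5 (1.44 ± 0.13) and the transcription factor TCF7L1 (3.07 ± 0.26) were above both lines, as was the secreted DKK3 (1.80 ± 0.16). The receptor FZD3 was below both (-0.91 ± 0.21). AXIN2, a target of the canonical pathway, was at most 0.456 CPM in PANC1 and 1.04 in KP4, and was not tested. In mCherry libraries 10 of 31 were higher and 1 lower, and in mCherry + M2rtTA libraries 13 of 33 were higher and 0 lower.

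Growth factor and MAPK feedback genes changed in both directions. Of 48 growth factor receptors and ligands, 7 were higher and 10 lower, beside 14.6% and 12.8% of all genes tested. Only 1 lay above both lines, RET, the receptor of glial-derived factors (2.54 ± 0.40), and 5 below, beside 9.86% and 8.29%. FGFR1 held 20.5 to 26.5 CPM against 50.8 to 71.2, and MET, the receptor of HGF, 15.2 to 22.1 against 35.9 to 44.3. Its ligand HGF held 2.28 to 6.33 CPM in PANC1 and 1.79 to 3.42 in PK45H but 66.6 to 89.6 in KP4. Of 26 MAPK feedback genes, 7 were higher and 8 lower, with a median of 0.136, and all 8 lower ones lay below both lines. In the mCherry libraries 8 of 25 were higher and 6 lower. They included the ERK phosphatases DUSP4 (-2.26 ± 0.22) and DUSP6 (-1.44 ± 0.16) and the ETS factor ETV4 (-2.29 ± 0.28). DUSP6 overlapped neither line but was close to PK45H, at 14 to 19.3 CPM against 19.4 to 21.7, whereas KP4 held 80.8 to 110. HRAS was above both lines (0.84 ± 0.17). Of 29 YAP and TEAD targets, 9 were higher and 3 lower, with the matricellular CCN1 (104 to 125 against 27.7 to 55.8 CPM), CRIM1 and MYOF above both lines and RBMS3 below.

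Matrix genes changed in both directions. Of 36 collagens, laminins and related genes, 7 were higher and 9 lower, with 5 above and 6 below both lines. COL18A1, the basement membrane collagen that yields endostatin, held 93.0, 83.0 and 92.6 CPM in PANC1 against 10.9 to 13.3 in the other lines (2.85 ± 0.12), and the linker NID1 18.9 to 22.1 against 1.18 to 4.17. The fibrillar COL1A1 held 19.2 to 22.1 CPM against 5 to 14.2. COL6A1 (-1.84 ± 0.20) and COL6A2 (-1.51 ± 0.28) were below both lines, and COL16A1 held at most 0.226 CPM in PANC1 against 1.04 to 10.6. Of 13 integrins, 5 were higher and 0 lower. The laminin receptor subunit ITGA3 (0.84 ± 0.13) and the vitronectin receptor subunits ITGAV (0.59 ± 0.17) and ITGB5 (1.05 ± 0.15) were above both lines. ITGB1, the partner of ITGA3, had -0.27 ± 0.16 (adjusted p = 0.239). The log2 fold change of ITGAV did not pass without PANC1 replicate 1 (0.411, adjusted p = 0.144), PANC1 replicate 2, KP4 replicate 1 or PK45H replicate 2, nor in the fits of 15 or 51 libraries (adjusted p = 0.0509 to 0.144 over these 6). Of 28 matrix proteases and inhibitors, 4 were higher and 9 lower. MMP2, a collagenase of basement membranes, held 61.7 to 86.8 CPM against 6.26 to 26.6, and its inhibitors TIMP1 and TIMP2 were below both lines, by 1.29 ± 0.12 and 1.87 ± 0.24 on the log2 scale. PLAUR, the urokinase receptor, fell by 2.21 ± 0.29.

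Antigen presentation was the list most often lower against the mean of KP4 and PK45H. Of 27 genes tested, 15 were lower and 1 was higher, with a median of -0.814. The other lines contributed unequally: the median was -0.226 against KP4 and -1.40 against PK45H, and 7 genes lay below both. The shares below both lines were larger for MAPK feedback genes (8 of 26) and 9p21 genes (4 of 12). HLA-B held 13.6 to 18.5 CPM in PANC1, 14.8 to 26.7 in KP4 and 172 to 198 in PK45H, and so overlapped KP4. B2M, the light chain of class I, lay between the lines, at 124 to 135 CPM against 43.1 to 52.0 in KP4 and 245 to 328 in PK45H. The peptide editor TAPBPL fell by 1.47 ± 0.21 and lay below both. The NKG2D ligand ULBP2 held at most 0.288 CPM in PANC1 against 2.67 to 14.1 (adjusted p = 0.00011), and another ligand of that receptor, MICB, was higher, at 82.0 to 104 CPM against 15.9 to 46.8. HLA-DRA, a class II gene carried in this list, had 1 count in all PANC1 libraries together and 11.6 to 15.3 CPM in PK45H. In the mCherry libraries 15 of 27 were again lower, and 2 were higher, with a median of -0.82. In the mCherry + M2rtTA libraries 10 of 27 were lower and 3 higher, with a median of -0.485.

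Of 40 interferon-induced genes, 10 were higher and 6 lower, with 8 above and 1 below both lines, though the list median was -0.172. IFITM2, a membrane protein that blocks virus entry, held 224, 170 and 198 CPM in PANC1 against 11.8 to 24.9 in the others (3.54 ± 0.14). IFITM1 (2.79 ± 0.30) is a close paralog of it, so that shared reads between them are uncertain, and the RNA-binding IFIT1 was also above both (2.27 ± 0.29). The ISG15-conjugating enzyme UBE2L6 was below (-2.54 ± 0.30). Of 26 NF-kB targets and cytokines, 5 were higher and 7 lower, beside 14.6% and 12.8% of all genes tested. Besides CSF1, the monocyte chemokine CCL2 held 216, 367 and 223 CPM in PANC1, 50.1 to 115 in KP4 and 25.7 to 43.6 in PK45H (2.36 ± 0.27), and TNFAIP2 was higher by 1.72 ± 0.19. CXCL16 (-0.69 ± 0.19) and IL18 (-0.89 ± 0.19) were below both lines. The log2 fold change of CXCL16 did not pass without PANC1 replicate 1 or PANC1 replicate 3 (adjusted p = 0.0889 and 0.0773).

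**Figure D4:**
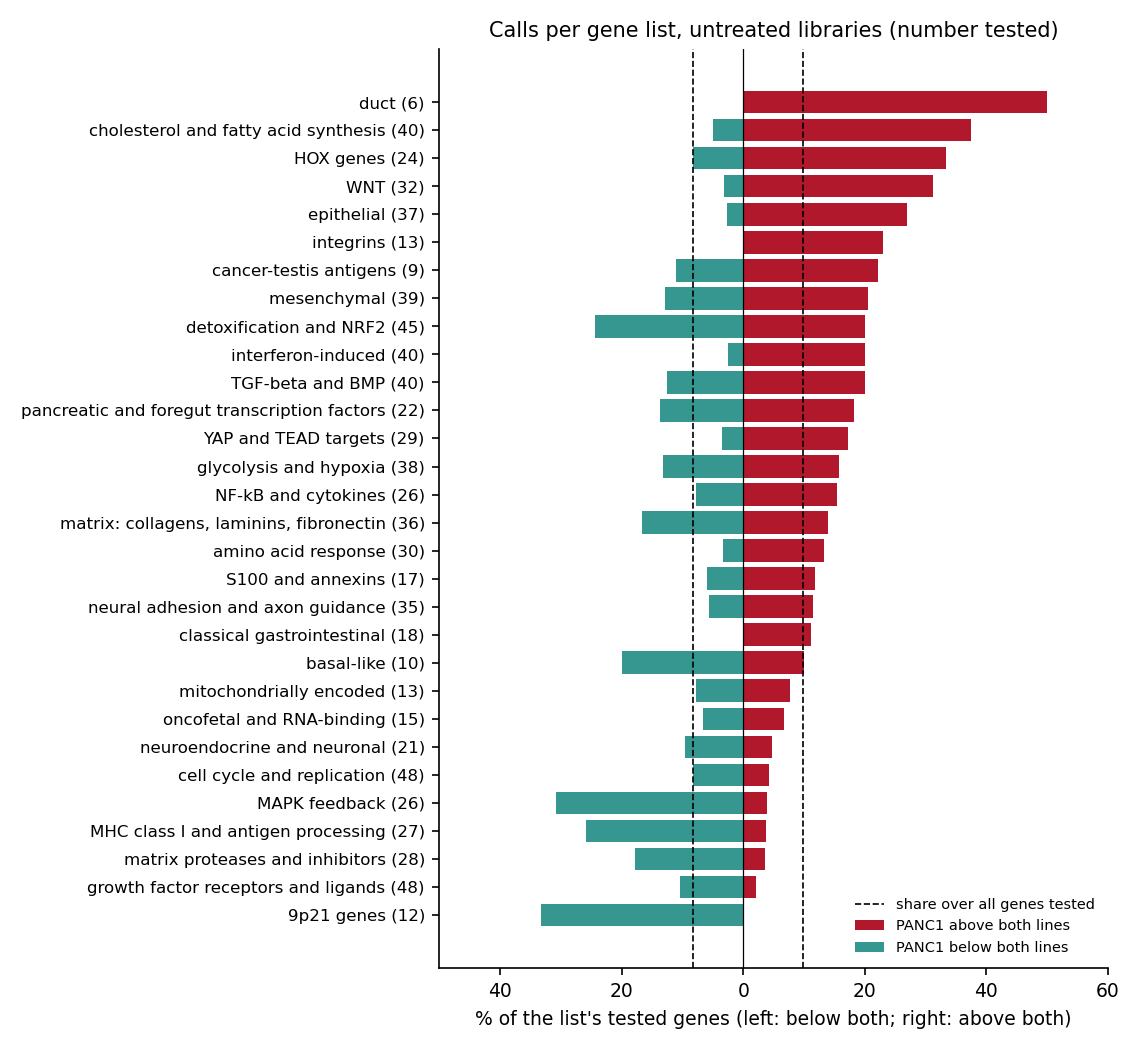
Bars give the percentage of each list's tested genes with PANC1 above both lines (right) or below both (left) in untreated libraries, with the number tested in brackets. Dashed lines mark 9.86% and 8.29%, the shares over all genes tested, and many lists lie beyond 1 or both of them. Among them are lipid synthesis, HOX, WNT and epithelial genes on the right, MAPK feedback, antigen presentation and 9p21 genes on the left, and detoxification on both sides.

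Lipid synthesis was higher in untreated PANC1 as a list and moved with the treatment. Cells make sterols and fatty acids under the SREBP factors, which are held back by INSIG1 and by membrane cholesterol and which switch on the whole pathway together. Of 40 genes tested, 20 were higher and 2 lower, with 15 above both lines and a median of 0.556. SCD, the desaturase that makes oleate, held 370, 358 and 278 CPM in PANC1, 49.4 to 56.6 in KP4 and 37.4 to 59.5 in PK45H, a log2 fold change of 2.74 ± 0.16 (adjusted p = 1.69e-06). FASN, the fatty acid synthase, held 186 to 313 CPM against 22.7 to 76.0, and the desaturase FADS2 was higher by 3.81 ± 0.32. On the sterol side, MSMO1 (1.57 ± 0.13), LSS (1.48 ± 0.16) and DHCR7 (1.65 ± 0.20) lay above both lines. The regulators SREBF1 (1.02 ± 0.17) and INSIG1 (1.93 ± 0.18) were above both, while SREBF2 had 0.25 ± 0.31 (adjusted p = 0.588). FABP5, a fatty acid carrier, and INSIG2 were below both lines.

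In the mCherry libraries the same list had 5 higher and 5 lower genes and a median of 0.119, and in the mCherry + M2rtTA libraries 7 higher and 7 lower and a median of -0.00632. SCD stood at 76.1 ± 1.40 CPM in mCherry PANC1, 33.3 ± 3.70 in KP4 and 74.9 ± 4.82 in PK45H, against 335 ± 50.4, 52.3 ± 3.86 and 48.2 ± 11.1 at rest. Its PANC1 difference changed by -2.13 ± 0.20 on the log2 scale (adjusted p = 0.000173). INSIG1 stood at 19.2 ± 1.74 CPM in mCherry PANC1 against 50.6 ± 9.61 at rest, and MSMO1 at 25.1 ± 1.28 against 60.97 ± 5.78. In KP4 and PK45H both genes held 9.19 to 22.6 CPM as group means in either condition. Of the 25 genes whose PANC1 difference changed, 9 belong to this list of 40. The change was negative in 21 and positive in 4, and 19 had been higher in PANC1 at rest.

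KRT19 was among them, with a change of -1.10 ± 0.16 (adjusted p = 0.0149), but it stayed above both lines in mCherry cells, at 241 ± 15.6 CPM against 29.0 ± 2.06 and 87.0 ± 9.35. The positive changes were in PSAT1, of serine synthesis, PCK2, a mitochondrial gluconeogenic enzyme, STC2, a secreted stress glycoprotein, and RNR1, a mitochondrial ribosomal RNA. PSAT1 rose from 108 ± 11.7 to 271 ± 13.7 CPM as PANC1 group means, and its difference changed by 0.88 ± 0.16 (adjusted p = 0.0345). Of 30 amino acid response genes, which ATF4 drives, 7 were higher and 4 lower at rest, 13 and 1 in mCherry and 15 and 0 in mCherry + M2rtTA libraries, with medians of 0.0927, 0.684 and 0.631. At rest ATF5 was higher by 1.71 ± 0.15, and the cystine carrier SLC7A11 was below both lines (-1.36 ± 0.23). The transduced cells also carried virus, puromycin and doxycycline, and these cannot be told apart here. The 25 calls rest on few libraries: leaving out 1 of the 18 at a time gave 1 to 17 calls, of which 1 to 15 were among the 25.

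**Figure D5:**
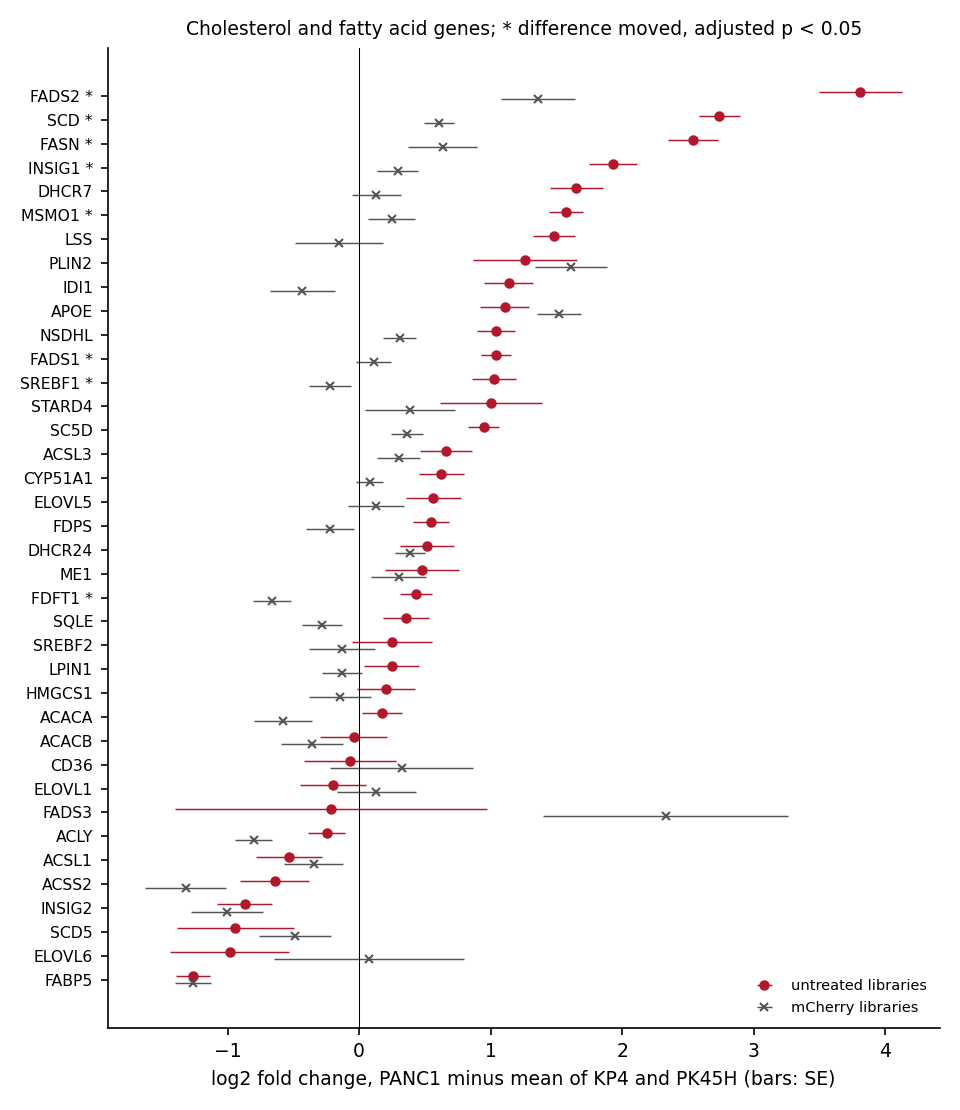
Log2 fold changes of PANC1 against the mean of KP4 and PK45H are shown for tested genes of cholesterol and fatty acid synthesis, in untreated (circles) and mCherry (crosses) libraries, with bars for SE. The circles of SCD, FASN, INSIG1 and MSMO1 lie far to the right of their crosses, and stars mark genes whose difference changed.

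The promoters of SCD and MSMO1 are printed as examples of the genes that moved together. They are the 250 bases before the RefSeq start (GRCh38.p14), SCD from chr10:100346983-100347232 and MSMO1 from chr4:165327419-165327668, both on the plus strand. Capitals again mark CCAAT or ATTGG, since NF-Y at this box is known to work beside SREBP.
SCD: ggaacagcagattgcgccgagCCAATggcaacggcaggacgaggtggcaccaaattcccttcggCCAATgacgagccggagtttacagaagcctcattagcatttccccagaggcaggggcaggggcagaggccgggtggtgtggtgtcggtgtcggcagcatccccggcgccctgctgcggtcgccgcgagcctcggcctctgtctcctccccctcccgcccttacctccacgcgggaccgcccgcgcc
MSMO1: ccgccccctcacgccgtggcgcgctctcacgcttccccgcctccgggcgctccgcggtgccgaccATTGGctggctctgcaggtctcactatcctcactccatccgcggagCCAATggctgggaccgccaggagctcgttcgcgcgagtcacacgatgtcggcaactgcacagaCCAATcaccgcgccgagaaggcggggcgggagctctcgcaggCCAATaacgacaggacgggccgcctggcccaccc
SCD held the box 2 times, at 229 and 186 bases before the start, and MSMO1 held it 4 times, at 185, 139, 76 and 34. Of the 33 list genes with a window, 24 held at least 1 copy (72.7%), against 41.9% of all tested genes with a window and 39.8% of those above both lines. A match of letters is no evidence of binding.

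Detoxification genes also changed in both directions. Of 45 tested, 13 were higher and 15 lower, with 9 above and 11 below both lines. The NRF2 target NQO1 held 140 to 178 CPM in PANC1 against 234 to 381 in the others, and AKR1B1, an aldose reductase, 24.0 to 25.8 against 44.9 to 174. By contrast the cytochrome CYP1B1 held 58.4 to 120 CPM against 6.33 to 13.5, and the drug exporter ABCG2 was higher by 2.34 ± 0.22. Of 38 glycolysis and hypoxia genes, 9 were higher and 9 lower, beside 14.6% and 12.8% of all genes tested. The hypoxia factor EPAS1 held 63.3 to 89.1 CPM against 3.33 to 25.0, and the peptide hormone ADM (2.57 ± 0.19) and the mitophagy receptor BNIP3 (2.50 ± 0.22), both hypoxia targets, were above both lines. Another such target, CA12, was below (-2.29 ± 0.39). The glycolytic enzymes TPI1 and GAPDH fell by 1.06 ± 0.15 and 0.87 ± 0.14. The part of chromosome position in these values was not tested. Among 17 S100 and annexin genes 4 were higher and 4 lower, with S100A10 and ANXA4 above both lines.

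Of 48 cell cycle and replication genes, 3 were higher and 9 lower, beside 14.6% and 12.8% of all genes tested, with a median of -0.138. CDK1 held 60.4 to 73.9 CPM in PANC1 against 109 to 138. Of 12 tested genes near the 9p21 locus, 2 were higher and 5 lower, with 4 below both. The higher ones were PLIN2, a lipid droplet protein, and MLLT3, an elongation complex subunit. The log2 fold change of MLLT3 rests on 1 library: it was 2.89, but -0.749 without PANC1 replicate 2. Of these 12 genes, 0 were higher without PANC1 replicate 2, KP4 replicate 1, KP4 replicate 3 or PK45H replicate 3. The largest in expression, RPS6, a small-subunit ribosomal protein, held 1063 to 1084 CPM against 2636 to 3308 (-1.48 ± 0.10, adjusted p = 6.83e-06), and its neighbours HAUS6, FOCAD and DENND4C were also below both lines, by 1.03, 0.92 and 0.94. CDKN2A itself held 4.52 to 6.38 CPM in PANC1, 3.34 to 4.83 in KP4 and 2.28 to 4.21 in PK45H (adjusted p = 0.28). Of 13 mitochondrial messages, 2 were higher and 1 lower, to be read beside the same 14.6% and 12.8%. ND5 stood at 0.46 ± 0.09 and COX1 at -0.37 ± 0.08.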

How the data were processed

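PLATE-seq libraries of 5 PDA lines were used, 51 in 17 groups of 3, with groups and replicate numbers taken from the titles. The authors deposited whole-number counts per gene symbol, 25421 genes in 1 table. Per the submitters' processing notes kallisto 0.44.0 and GRCh38 were used; how estimated counts became whole numbers and whether molecular identifiers were collapsed is not given in the sources used here. The number of value columns matched to no sample was 0.

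Genes were filtered with filterByExpr, scaled by TMM and tested with edgeR 4.0.16 (quasi-likelihood test, two-sided, Benjamini-Hochberg over all genes tested, threshold 0.05) in R 4.3.3, on the 9 untreated libraries, the 9 mCherry libraries, or all 18 for the change between them. Every adjusted p is from edgeR unless another tool is named. The scripts were tested on simulated data. DESeq2 1.42.0, other scaling, filters, dispersion, sets of libraries, thinning, a replicate block and leaving out each library were tried as alternatives. Low counts limit precision most in PANC1, the shallowest line.

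The comparison, gene lists and tests were chosen with earlier results of these data known. Named genes were 5 epithelial-state genes whatever their values. Others were the 12 higher and 12 lower genes outside both lines with the largest smaller-of-both fold change. These needed a mean of at least 10 CPM, in PANC1 for higher genes and in both other lines for lower ones. In each list up to 3 genes per direction were named by smallest p, plus partners needed to read them. Genes of the chromosome 19 run and its promoters, those whose PANC1 difference changed with treatment, and other members named beside a list's leading genes were chosen after their values were seen. Some genes of these lists are counted but not reported here by name. Gene positions and promoter windows came from RefSeq GRCh38.p14, and 13402 of the 13523 tested genes were placed on chromosomes.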

Additional observations from a re-analysis of the deposited data

Results flagged for a closer look

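The PANC1 difference changed between untreated and mCherry libraries in 25 genes by edgeR's interaction test, adjusted over all genes tested. Values are log2 changes, mCherry minus untreated. In lipid synthesis they were -2.13 for SCD, -1.90 for FASN, -2.46 for FADS2, -0.93 for FADS1, -1.64 for INSIG1, -1.33 for MSMO1, -1.10 for FDFT1 and -1.25 for SREBF1. Other metabolic genes were ACAT2 at -1.51, DBI at -0.959, TECR at -0.814, SLC25A1 at -0.823 and PGD at -0.848. The keratin KRT19 was at -1.10, the retinoic acid carrier CRABP2 at -1.26, the GTPases RAB26 and RAB34 at -2.10 and -2.01, and CEND1 at -1.42. The mitochondrial messages COX2 and ND4 were at -0.497 and -0.624. The positive changes were 0.877 for PSAT1, 1.5 for PCK2, 1.78 for STC2 and 1.33 for RNR1. Virus, puromycin, doxycycline and any difference in handling of these libraries cannot be told apart.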

How the results depend on the processing

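The 3705 genes past the threshold at rest became 2816 to 3452 with 1 library left out at a time and 3162 to 4068 under the other settings. The 2455 outside both lines became 2290 to 2672 and 2114 to 2481. The 25 genes whose PANC1 difference changed depended most on the setting. Such calls numbered 6 with no filter on low counts, 7 with thinned libraries, 38 with robust dispersion, 85 with DESeq2 and 45 in the fit of all 51 libraries. Of those 45, 23 were positive, against 4 of 25, and 17 were among the 25. With the replicate number as a block there were 9 such calls, and the replicate block gave 3248 genes at rest. Same-numbered untreated libraries correlated at -0.0787 to 0.0779 in their deviations, so the numbers were not taken as pairs. Leaving out 1 of the 18 libraries gave 1 to 17 calls of a changed PANC1 difference, each count under the 25. There were 17 without KP4 mCherry replicate 3 (15 of them among the 25) and 10 without PANC1 untreated replicate 2 (9 of them). There was 1 without PANC1 mCherry replicate 1, PANC1 mCherry replicate 3 or PANC1 untreated replicate 1, with 2 to 8 for the others. Of 178 genes past the threshold that were followed singly, 166 kept call and direction under every setting tried (up to 18 per gene). Not every gene named above was followed. PLIN2 was not, and 0 of the 12 tested 9p21 genes were higher without KP4 replicate 1 or KP4 replicate 3. The log2 fold change of MLLT3, near 9p21, was 2.89, and it was 3.44 without PANC1 replicate 1 but -0.749 without PANC1 replicate 2, so that it rests on 1 library. FDFT1, PGD, ITGAV and PLD3 lost the call in 8, 11, 6 and 6 settings. Depth limits OVOL2 and AXIN2, which were too low to test.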
